A study of Medicago truncatula with 6 samples.

Results

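Small RNA counts of non-LTR retrotransposon fragments were examined in roots of Medicago truncatula, a model legume. The fragments were the annotated features whose ID contains non_LTR, 659 of 400216 features in all. Each of the 659 IDs began with RIL, the customary transposon code for LINE elements of the L1 type, and no ID with a SINE code was among them. The SKI3 RNAi group and the GUS RNAi group had 3 libraries each, all from mock-treated roots of genotype WT, so the groups differ in the RNAi target alone as far as the labels say. The SKI3 protein belongs to the Superkiller complex, and GUS, a bacterial reporter gene, is a common RNAi control with no target in the plant. The promoter of the RNAi constructs, the number of plants per library and whether libraries came from separate plants are not given in the sources used here, so a p-value measures the spread between these libraries, which may be technical. Table totals ran from 2324061 to 2851473 counts in SKI3 RNAi and from 2168297 to 3974092 counts in GUS RNAi. A line left in the table of SKI3 RNAi replicate 3 names reads of 21 to 22 nt, and no length is named for the other libraries. Feature IDs carry no gene names, so neither the SKI3 gene nor markers of root tissue could be checked.

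LINEs are retrotransposons that copy themselves through an RNA intermediate with their own reverse transcriptase and endonuclease, without long terminal repeats. Copying often stops early, so most genomic copies are pieces of an element. Plants silence transposons with small RNAs: siRNAs of the length classes made by the Dicer-like enzymes DCL4 and DCL2 act on transposon transcripts, and longer siRNAs guide DNA methylation. The Superkiller complex feeds RNA to the exosome for decay, and in Arabidopsis its loss raises secondary siRNAs from cleaved transcripts. These libraries address whether small RNAs of LINE fragments differ between SKI3 RNAi and GUS RNAi roots without a further treatment.

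By their IDs, the 659 fragments were assigned to 64 LINE elements. A piece of an element means below a fragment assigned to it, wherever in the genome it lies. An ID names the reference copy of its element by chromosome, start and end, and then the chromosome and serial number of the fragment. For example, retrotransposon57 has its reference copy on chromosome 7 from 21770030 to 21772611, and its fragment Chr7-13180 is the feature with that serial number among the transposon fragments of chromosome 7. Positions are those in the IDs, which carry the name MtrunA17, and the genome build is not given in the sources used here. Reference copies spanned 1055 to 2663 bases, with a median of 2579. An element had between 1 and 26 fragments, with a median of 9. Of the fragments, 652 lay on the 8 numbered chromosomes and 7 on unplaced sequences, and 141 of 659 lay on the chromosome of their own reference copy. Those 141 fragments, 21.4% of all, held 19.6% of the LINE counts. The tables give no fragment lengths, so levels below are per fragment and not per length.

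Small RNAs were spread unevenly over the LINE fragments. All libraries together held 12234 LINE counts. No count was found for 175 fragments, which allows a level of up to 0.172 CPM (counts per 1000000 counts of the library's table) over the pooled libraries by counting error alone. Of the others, 266 had 1 to 9 counts, 191 had 10 to 99, and 27 had at least 100. Exactly 1 count was found for 80 of the 266. The 10 most counted fragments held 23.3% of the LINE counts and the first of them 5.78%. By element, 6 of 64 had no count, and the 10 most counted held 55.9%. By chromosome, the part of the fragments with a count ran from 65.9% of 88 on chromosome 3 to 82.7% of 81 on chromosome 1. Chromosome 4, with 96 fragments, held the largest part of the counts, 17.9%.

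Of the elements, retrotransposon32, with its reference copy on chromosome 4 from 39218987 to 39221550, had the most counts. Its 23 fragments summed to 82.4, 83.9 and 56.3 CPM in SKI3 RNAi replicates 1 to 3, against 98.1, 85.3 and 78.9 CPM in GUS RNAi. The groups overlapped, with SKI3 RNAi replicate 3 below all other libraries. With TMM factors, a scaling that discounts features with extreme differences, the SKI3 RNAi libraries of this element lay below all GUS RNAi libraries. The 22 fragments of retrotransposon57 summed to 58.2, 49.1 and 71.2 CPM in SKI3 RNAi, against 67.4, 56.3 and 63.7 CPM in GUS RNAi. The 15 fragments of retrotransposon0, whose reference copy lies on chromosome 1 from 2778995 to 2781510, summed to 39.3, 46.0 and 38.7 CPM in SKI3 RNAi, against 52.6, 61.3 and 41.0 CPM in GUS RNAi. SKI3 RNAi replicate 2 and GUS RNAi replicate 3 were the only libraries to cross, and with TMM factors the SKI3 RNAi libraries were all below. The 10 fragments of retrotransposon68, with its reference copy on chromosome 7 from 52792676 to 52795191, summed to 54.4, 76.2 and 27.9 CPM in SKI3 RNAi, against 34.5, 42.4 and 27.0 CPM in GUS RNAi. In each group replicate 2 was the highest library of this element and replicate 3 the lowest.

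Among the next elements, several averaged higher in SKI3 RNAi, and in all but one of them the libraries of the groups overlapped. Retrotransposon6, with 26 fragments the element in most pieces, averaged 37.3 ± 7.21 CPM in SKI3 RNAi and 30.8 ± 2.47 CPM in GUS RNAi (SD, n = 3 each), and retrotransposon64 averaged 35.0 ± 9.64 CPM in SKI3 RNAi and 28.3 ± 3.12 CPM in GUS RNAi. The groups overlapped in both. The 22 fragments of retrotransposon61 summed to 29.8, 36.6 and 24.9 CPM in SKI3 RNAi, against 24.4, 22.6 and 22.1 CPM in GUS RNAi. This was the one element among the 12 most counted whose SKI3 RNAi libraries were all above its GUS RNAi libraries, on table totals and with TMM factors alike, and SKI3 RNAi replicate 3 exceeded GUS RNAi replicate 1 narrowly. Retrotransposon28 averaged 28.5 ± 8.69 CPM in SKI3 RNAi and 19.1 ± 3.22 CPM in GUS RNAi, with an overlap. Retrotransposon17, retrotransposon7, retrotransposon38 and retrotransposon77 averaged 22.7 to 25.1 CPM in SKI3 RNAi and 20.8 to 24.2 CPM in GUS RNAi, and overlapped.

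**Figure D1:**
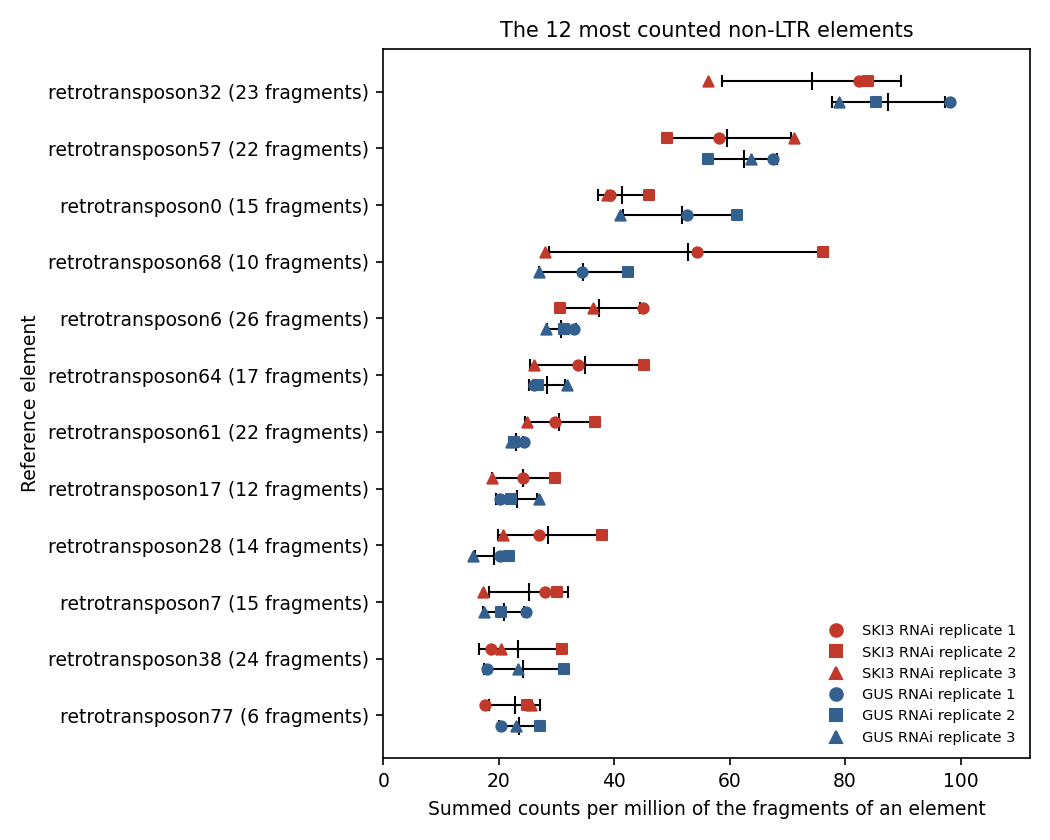
Summed CPM of the fragments of the 12 most counted elements (x axis), one row per element with SKI3 RNAi above GUS RNAi. Symbols are libraries, ticks with bars are means and SD over 3 libraries. Elements range from retrotransposon32, with 74.2 CPM in SKI3 RNAi and 87.4 CPM in GUS RNAi on average, down to retrotransposon77, with 22.7 CPM in SKI3 RNAi and 23.5 CPM in GUS RNAi.

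Elements differed in how their counts were spread over their pieces. In retrotransposon57 the single fragment Chr7-13180 held 65.6% of the counts, and 5 of 22 fragments had none. In retrotransposon30 a single fragment held 96.2% of 132 counts, and 5 of its 10 fragments had none. Retrotransposon68 was split: 6 of its 10 fragments had 62 to 216 counts, and the other 4 had none in any library. By contrast, retrotransposon72 had counts in 20 of 22 fragments, with 96 counts in all and 17.7% of them in its most counted fragment. Every fragment had a count in 14 elements, among them all 15 of retrotransposon0.

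The most counted LINE fragment was retrotransposon57 Chr7-13180. It had 41.4, 31.0 and 44.4 CPM in SKI3 RNAi, against 43.8, 38.3 and 41.3 CPM in GUS RNAi. The groups overlapped, and replicate 2 was the lowest library of each. The fitted log2 fold change (SKI3 RNAi over GUS RNAi) of -0.17 was smaller than its standard error of 0.212, and the adjusted p in edgeR was 0.875.

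Next in order were 2 fragments of retrotransposon32, and both were lower in every SKI3 RNAi library than in any GUS RNAi library. Fragment Chr1-21600 had 17.5, 15.1 and 17.2 CPM in SKI3 RNAi, against 28.9, 20.8 and 22.4 CPM in GUS RNAi. Fragment Chr4-18828 had 14.7, 14.2 and 16.1 CPM in SKI3 RNAi, against 28.4, 18.9 and 21.8 CPM in GUS RNAi. Their log2 fold changes were -0.64 (standard error 0.223) and -0.73 (standard error 0.235), and the adjusted p in edgeR was 0.743 for both, so neither passed the threshold of 0.05. Their counts were near-equal: they differed by at most 8 in any library, and the differences summed to 21 counts against totals of 368 and 347. Another piece of this element varied between libraries in a different way. Fragment Chr7-765 had 13.0, 17.6 and 4.98 CPM in SKI3 RNAi, against 12.1, 13.4 and 4.88 CPM in GUS RNAi, with replicate 3 far below the other libraries in each group.

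Among the 10 most counted were also 3 fragments of retrotransposon0, each on another chromosome. Fragments Chr1-17561 and Chr2-24036 differed by at most 1 count in any library, at totals of 206 and 203. The third, Chr3-29756, had 10.2, 12.5 and 10.3 CPM in SKI3 RNAi, against 14.8, 17.5 and 12.05 CPM in GUS RNAi, with an overlap only between SKI3 RNAi replicate 2 and GUS RNAi replicate 3. Its log2 fold change in edgeR, -0.51 (standard error 0.224), had an adjusted p of 0.750. Chr1-17561 and Chr2-24036 had log2 fold changes of -0.40 and -0.45, with adjusted p-values of 0.840 and 0.829 in edgeR. How a read with several alignments was counted is not given in the sources used here. A pair of pieces from different elements, retrotransposon17 Chr3-23362 and retrotransposon37 Chr4-5422, also differed by at most 3 counts in any library, at totals of 107 and 103. The near-equal pairs named were picked from 351 pairs of fragments with at least 100 counts. In the 16 pairs of the same element the differences summed to a median of 78.4% of the smaller total. In pairs of different elements the median was 54.9%, so near-equal counts were not typical of pieces of an element. Whether near-equal counts are the same reads was not tested.

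**Figure D2:**
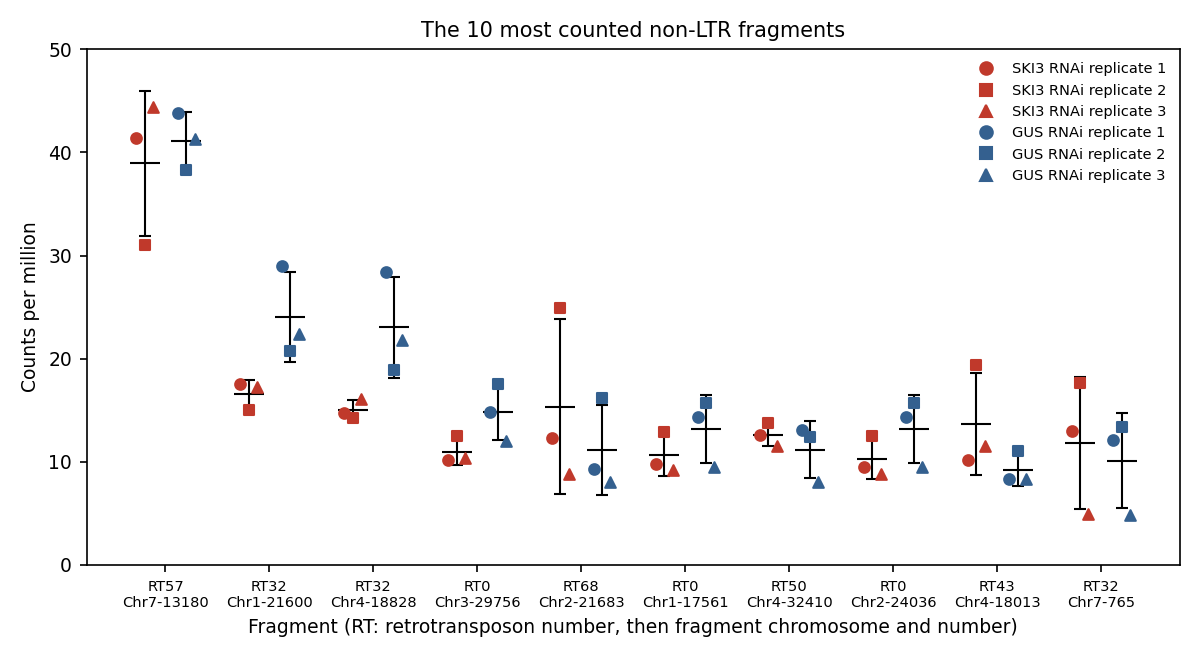
The CPM values (y axis) of the 10 most counted LINE fragments, with SKI3 RNAi left of GUS RNAi for each. Symbols are libraries, ticks with bars are means and SD over 3 libraries. Groups are apart only for retrotransposon32 Chr1-21600 and Chr4-18828, where all SKI3 RNAi libraries lie below all GUS RNAi libraries.

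Among the other fragments in the first 10, retrotransposon68 Chr2-21683 had 12.3, 25.0 and 8.81 CPM in SKI3 RNAi, against 9.31, 16.1 and 8.03 CPM in GUS RNAi. The fragment retrotransposon43 Chr4-18013 had 10.2, 19.4 and 11.5 CPM in SKI3 RNAi, against 8.30, 11.1 and 8.32 CPM in GUS RNAi. In both fragments replicate 2 was the highest library of its group, and the groups overlapped. The fragment retrotransposon50 Chr4-32410 had 12.6, 13.8 and 11.5 CPM in SKI3 RNAi, against 13.1, 12.5 and 8.03 CPM in GUS RNAi. Their log2 fold changes were 0.38, 0.47 and 0.08, with standard errors of 0.368, 0.278 and 0.242 and adjusted p-values in edgeR of 0.855, 0.835 and 0.962.

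Summed over all 659 fragments, LINE small RNAs did not set the groups apart. The sums were 742, 846 and 647 CPM in SKI3 RNAi replicates 1 to 3, against 705, 721 and 602 CPM in GUS RNAi. The means were 745 ± 99.5 CPM in SKI3 RNAi and 676 ± 64.7 CPM in GUS RNAi (SD, n = 3 each), and the groups overlapped. Table totals as the scale moved all features together: over the 48283 tested ones the median log2 fold change was then 0.12, and 0.02 when TMM factors were used. With TMM factors the LINE sums were 718 ± 61.5 CPM in SKI3 RNAi and 697 ± 41.1 CPM in GUS RNAi, so the difference of 68.9 CPM was 20.8 CPM on that scale. On table totals single libraries moved the difference too. It was 18.6 CPM without SKI3 RNAi replicate 2, 31.9 CPM without GUS RNAi replicate 3 and 118 CPM without SKI3 RNAi replicate 3. With TMM factors no library was left out. No test was made of these sums.

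Only 63 of the 659 fragments, with 63.2% of the LINE counts, had enough counts to be tested one by one. They summed to 456 ± 54.3 CPM in SKI3 RNAi and 440 ± 52.7 CPM in GUS RNAi. The 596 others summed to 284, 337 and 247 CPM in SKI3 RNAi, against 243, 242 and 222 CPM in GUS RNAi. On this scale every SKI3 RNAi library lay above every GUS RNAi library, with SKI3 RNAi replicate 3 and GUS RNAi replicate 1 nearest to each other. With TMM factors the sums were 272, 312 and 252 CPM in SKI3 RNAi, against 253, 237 and 240 CPM in GUS RNAi, and those 2 libraries changed places. With TMM factors the 63 tested fragments summed to 439 ± 31.1 CPM in SKI3 RNAi and 454 ± 36.4 CPM in GUS RNAi, the opposite order. Over all tested features, the median log2 fold change was 0.05 in the lowest bin by mean CPM and -0.18 in the highest. The whole table was not split into tested and untested sums in this way.

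**Figure D3:**
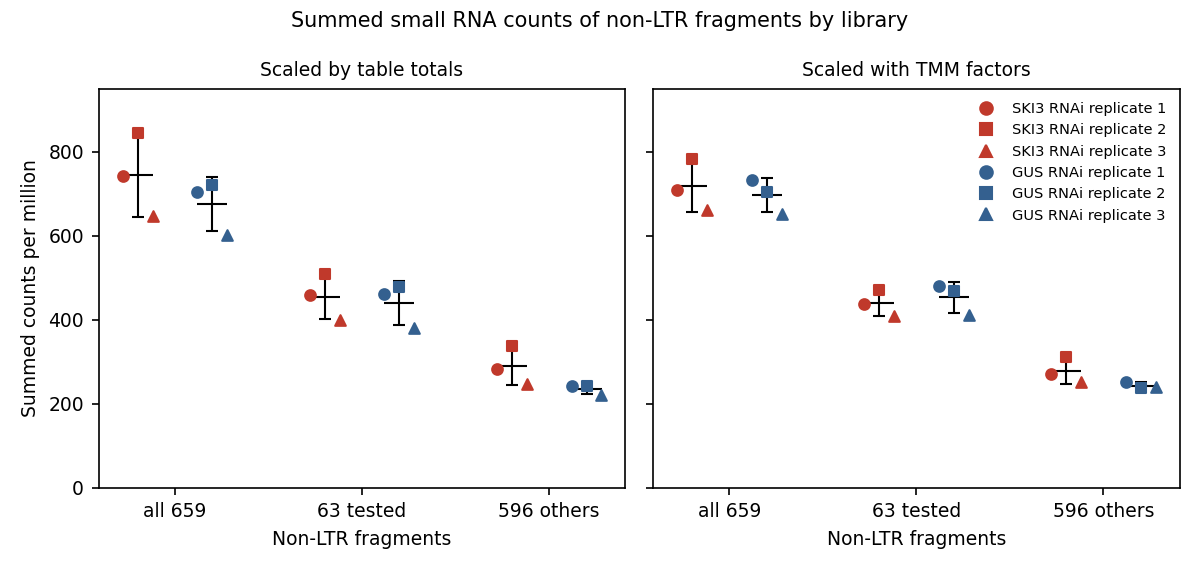
Summed CPM (y axis) of all LINE fragments, of the 63 tested ones and of the 596 others, with SKI3 RNAi left of GUS RNAi. The left panel uses table totals and the right panel TMM factors. Symbols are libraries, ticks with bars are means and SD over 3 libraries. For the 596 others the groups are apart on the left, and on the right SKI3 RNAi replicate 3 at 252 CPM lies just below GUS RNAi replicate 1 at 253 CPM.

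No single LINE fragment passed the test for a difference between SKI3 RNAi and GUS RNAi. P-values came from the quasi-likelihood F test of edgeR, adjusted by Benjamini-Hochberg over the 48283 tested features. By these, 0 of the 63 had an adjusted p under 0.05, as did 0% of the 48283. At an unadjusted p under 0.05 there were 3 of 63, or 4.76%, all lower in SKI3 RNAi. Among all tested features the share was 6.58%, made up of 2.99% lower and 3.58% higher features. DESeq2 gave 0 by the adjusted p, and by the unadjusted p 2 of 63, or 3.17%, where it gave 2.38% of all tested features. The direction and number of fragments at an unadjusted p under 0.05 in edgeR moved with the libraries and the scale. Without SKI3 RNAi replicate 3 there were 7 of 73, or 9.59%, against 8.94% of the features tested there, with 4 higher and 3 lower. Without GUS RNAi replicate 3 there were 5 of 69, or 7.25%, against 4.84%, all lower, and without GUS RNAi replicate 1 there were 2 of 68, or 2.94%, against 5.3%, both higher. On table totals 1 was higher and 2 were lower, again 4.76%, against 7.04%. Without SKI3 RNAi replicate 1 edgeR called 492 features, or 0.973%, by the adjusted p, and 0 LINE fragments were among them. With all 6 libraries and TMM factors, the 3 were retrotransposon32 Chr1-21600, retrotransposon32 Chr4-18828 and retrotransposon0 Chr3-29756, and the first 2 have the near-equal counts described. The median log2 fold change of the 63 was 0.08, against 0.02 for all tested features, and it ranged from -0.73 to 0.74. On table totals the SKI3 RNAi libraries lay all above the GUS RNAi libraries in 2 fragments. These were retrotransposon61 Chr4-6070 and, named after its values were seen, retrotransposon28 Chr2-24498. The SKI3 RNAi libraries lay all below in the 2 fragments of retrotransposon32 named. Of all tested features, 10.5% lay above and 3.6% below. With TMM factors it was 2 above and 4 below, with retrotransposon0 Chr3-29756 and, again named after the fact, retrotransposon77 Chr2-5165 added. On that scale 7.35% of all tested features lay above and 5.6% below.

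The positive fold changes with the smallest p were those of a piece of retrotransposon61 and 2 pieces of retrotransposon68. Fragment retrotransposon61 Chr4-6070 had 32, 32 and 24 counts in SKI3 RNAi, against 33, 16 and 21 counts in GUS RNAi, or 11.2, 13.8 and 9.19 CPM against 8.30, 7.38 and 6.02 CPM. All SKI3 RNAi libraries were above all GUS RNAi libraries in CPM. The log2 fold change in edgeR was 0.54 (standard error 0.251), and its adjusted p was 0.767. Fragment retrotransposon68 Chr4-18537 had 27, 19 and 10 counts in SKI3 RNAi, against 17, 4 and 18 counts in GUS RNAi, and the groups overlapped. Fragment retrotransposon68 Chr5-17011 had 20, 26 and 9 counts in SKI3 RNAi, against 17, 10 and 13 counts in GUS RNAi, again with an overlap. Their log2 fold changes were 0.74 and 0.66, with standard errors of 0.418 and 0.382 and adjusted p-values in edgeR of 0.829 and 0.833.

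**Figure D4:**
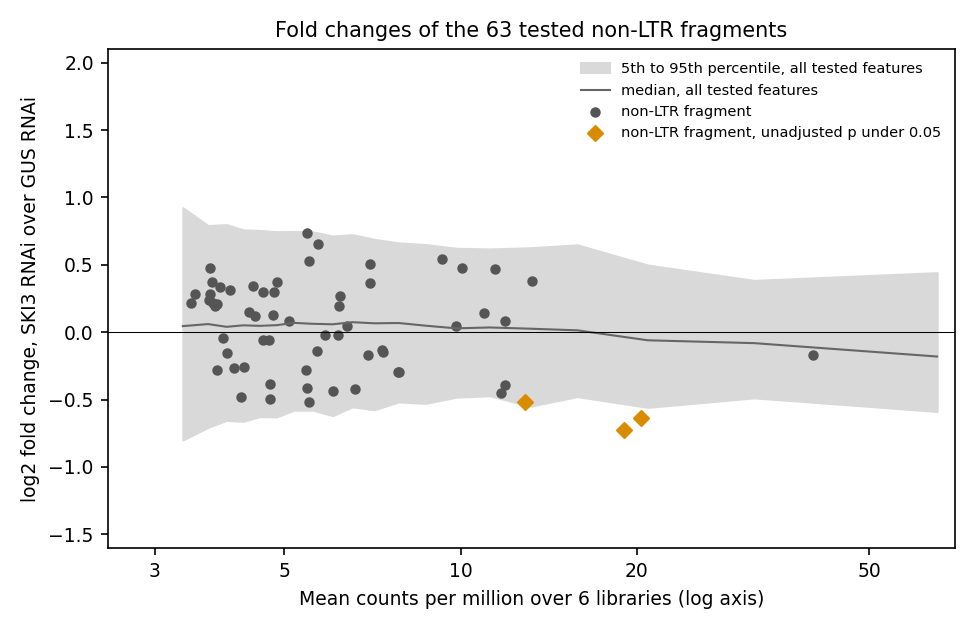
The log2 fold change of SKI3 RNAi over GUS RNAi (y axis) against the mean CPM over 6 libraries (log x axis) for the 63 tested LINE fragments. The grey band is the 5th to 95th percentile, and the line the median, of the 48283 features tested, by level. Diamonds mark the 3 fragments at an unadjusted p under 0.05, which lie at -0.64, -0.73 and -0.51.

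Adding the pieces of an element gave more counts per test, at the cost that a read counted in several pieces counts several times. When the fragments of all transposon classes were summed by reference element in this way, a choice made after the counts were seen, 34 LINE elements could be tested among 33306 features. Of these 34, 0 had an adjusted p under 0.05, as did 0% of the 33306. At an unadjusted p under 0.05 there were 2, or 5.88%, against 6.7% of all. The higher one was retrotransposon72, whose 22 fragments summed to 23, 19 and 15 counts in SKI3 RNAi, against 18, 7 and 14 counts in GUS RNAi. In CPM these were 8.07, 8.18 and 5.74 in SKI3 RNAi, against 4.53, 3.23 and 4.02 in GUS RNAi, and the groups were apart. The lower one was retrotransposon0. The log2 fold change was 0.75 for retrotransposon72 and -0.42 for retrotransposon0, with standard errors of 0.287 and 0.173, and the adjusted p in edgeR was 0.737 and 0.738. On table totals retrotransposon61, retrotransposon76, retrotransposon44 and retrotransposon72, named for this after their values were seen, lay with all SKI3 RNAi libraries above all GUS RNAi libraries and 0 of the 34 lay below, where 11% and 3.46% of the 33306 features did. With TMM factors there were 4 above and 2 below, retrotransposon32 and retrotransposon0, where 7.63% and 5.49% did. No such share was made over all summed features, tested or not, so the next counts cannot be read as a lean of LINE elements. Over all 64 elements, tested or not, 8 lay above and 1 below on table totals, and 8 above and 3 below with TMM factors. The 5 untested ones among them, likewise named after their values were seen, had few counts: retrotransposon11, retrotransposon9, retrotransposon46 and retrotransposon71 lay above, with 58, 30, 18 and 5 counts over the 6 libraries, and retrotransposon79 lay below, with 7.

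About as many LINE fragments had a count in SKI3 RNAi as in GUS RNAi libraries. Of the 659 fragments, 334, 337 and 298 had a count in SKI3 RNAi replicates 1 to 3, against 343, 310 and 313 in GUS RNAi. The exact 95% binomial interval was 46.8% to 54.6% around 50.7% in SKI3 RNAi replicate 1. In GUS RNAi replicate 1 it was 48.2% to 55.9% around 52.0%. Such an interval treats the 659 fragments as independent and equally likely to have a count. It measures neither the counting error of reads nor the spread between libraries. The means were 49.0% ± 3.29 in SKI3 RNAi and 48.9% ± 2.77 in GUS RNAi (SD, n = 3 each). At the depth of the shallowest library, by the hypergeometric expectation, they were 46.3% ± 3.69 in SKI3 RNAi and 43.6% ± 3.16 in GUS RNAi. The difference of 2.68 percentage points was smaller than either SD. A count appeared in all 6 libraries for 183 fragments and in a single library for 95. Fragments with counts in SKI3 RNAi libraries alone numbered 72, with at most 6 counts each. Those with counts in GUS RNAi libraries alone numbered 50, with at most 5 counts each. No such share was made over all features, so these numbers cannot be read as a lean of LINE fragments.

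The share of LINE fragments with a count was also set against that of other retrotransposons in the same libraries. Over the 6 libraries it was 48.9% ± 2.72 for LINE fragments, 50.6% ± 2.21 for 19597 Copia LTR fragments, 50.7% ± 2.78 for 45975 other LTR fragments and 50.5% ± 3.08 for 9158 fragments of TRIMs, short elements with terminal repeats. LINE fragments had the lower share in 5 of 6 libraries against Copia, in 5 of 6 against other LTR fragments and in 4 of 6 against TRIMs. The mean differences were -1.68, -1.74 and -1.59 percentage points, and the exact two-sided paired permutation p over the libraries was 0.125, 0.125 and 0.219, or 0.188, 0.188 and 0.219 adjusted over the 3 comparisons. The single differences ran from -3.83 to 1.58, from -4.04 to 1.32 and from -4.27 to 2.03 percentage points. With at least 3 counts required, the shares were 25.4% ± 2.83 for LINE fragments, 28.6% ± 2.51 for Copia, 26.3% ± 2.82 for other LTR fragments and 27.1% ± 2.90 for TRIMs. LINE fragments were then lower in 6 of 6 libraries against Copia, by 3.25 percentage points, and against TRIMs, by 1.73. The exact paired permutation p was 0.0312 for each, the smallest that 6 libraries can give, or 0.0469 adjusted. All libraries count the same fragments, so these p-values cover whether a difference repeats between libraries. They do not cover which fragments make up a class. Against other LTR fragments the exact adjusted p was 0.156. In the 6 libraries pooled, 73.4% of LINE fragments had a count, against 74.9% for Copia, 76.8% for other LTR fragments and 76.9% for TRIMs. Enough counts to be tested were found for 9.56% of LINE fragments, against 11.0%, 8.63% and 10.3%. Of all features, 79.3% had a count and 12.1% were tested. Longer fragments can collect more counts, lengths are not in the tables, and their part in these differences was not tested.

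**Figure D5:**
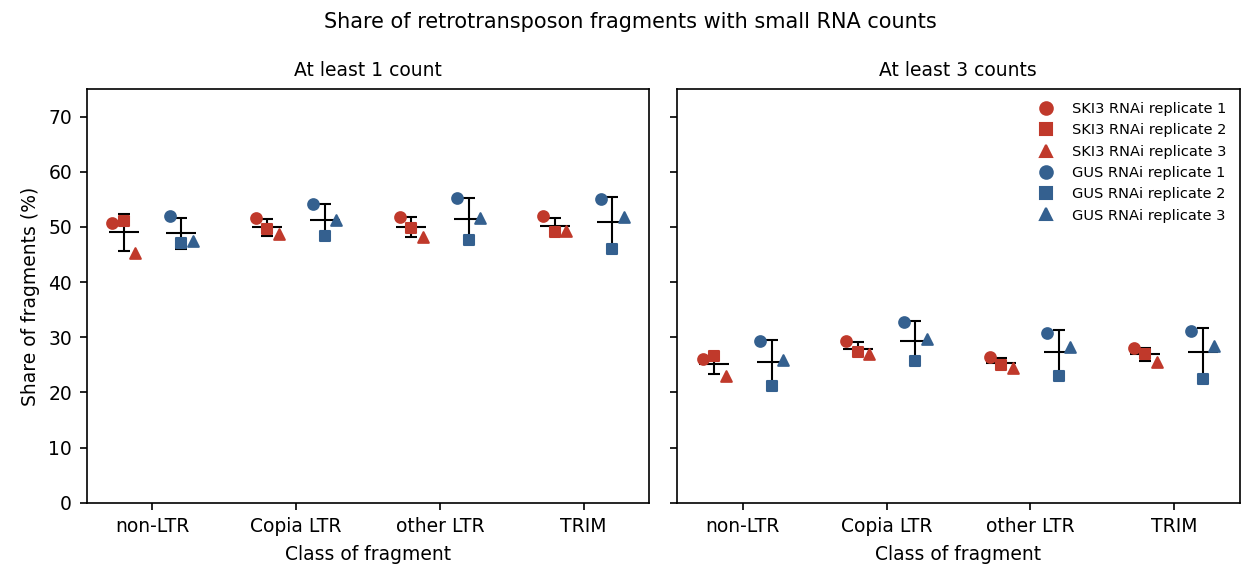
Share of fragments with at least 1 count (left) or at least 3 counts (right) for LINE fragments and 3 other classes of retrotransposon, with SKI3 RNAi left of GUS RNAi. The y axis is in percent. Symbols are libraries, ticks with bars are means and SD over 3 libraries. All classes lie near 50% on the left, at 48.9% for LINE fragments, and between 25.4% and 28.6% on average on the right.

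The order of rows follows the serial numbers of fragments along each chromosome, with genes and promoters in between. The features listed next to a LINE fragment could thus be read. By the numbers in their IDs, 0 of 220355 transposon fragments and 1721 of 52167 nuclear genes were out of order. Distances between adjoining rows are not given. The most counted fragment, Chr7-13180 of retrotransposon57, stood between a Copia fragment with 67 counts and another LTR fragment with 23, against its own 707 over all libraries. The fragment Chr1-21600 of retrotransposon32, with 368 counts, followed an LTR fragment with 0 counts and preceded the 3 kb promoter of MtrunA17Chr1g0197281, with 89 counts. Its near-equal partner Chr4-18828, with 347 counts, followed a Copia fragment with 0 counts and preceded the gene MtrunA17Chr4g0032451, with 22. The files do not pair these gene IDs with names. Of the 27 fragments with at least 100 counts, 22 had more counts than both adjoining rows, whose median was 15 counts. For the 175 fragments with no count, the median of adjoining rows was 3 counts. A gene or promoter row adjoined 316 of the 659 fragments, or 48.0%. This was 40.7% of the 27 with at least 100 counts, 47.6% of the 191 with 10 to 99, 44.4% of the 266 with 1 to 9 and 54.9% of the 175 with none. These are descriptions of a list chosen by its counts, with no test. The same shares were not made for other fragments or for all features. They cannot be read as traits of LINE fragments.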

How the data were processed

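Small RNA of 6 root libraries was measured. The values deposited by the authors are unnormalized whole-number counts, 1 table per library. The labels' protocols name Trizol extraction and NEBNext small RNA libraries amplified by PCR, with no molecular identifiers mentioned. Floors thus cover counting error only. The binomial intervals treat fragments as independent draws. The submitters' processing notes name cutadapt 2.10, Bowtie 1.3.1 and DESeq2 1.34.0. Counting of multiply aligned reads, strand and genome build are not given in the sources used here. The stray header line was dropped. Groups and replicate numbers came from the titles.

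CPM was computed on table totals, which are not the full depth of a library. All features were fitted together with edgeR 4.0.16 in R 4.3.3: filterByExpr at its minimum count of 10, TMM factors, quasi-likelihood test with group as the only term, Benjamini-Hochberg adjustment over all 48283 tested features, threshold 0.05. Standard errors are the size of the log2 fold change divided by the root of F. DESeq2 1.42.0 was an alternative. The scripts were tested on simulated data. Paired shares used exact permutation over 6 libraries.

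The LINE fragments, lists and tests were chosen with earlier results of these data known. Named fragments were the 10 most counted, the 3 with the smallest p in each direction, and the most counted of an ID prefix or family. The fragments share a single prefix, and of the most counted per element those among the 10 most counted elements were followed. Elements 30 and 72 were named after their values were seen.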

Additional observations from a re-analysis of the deposited data

How the results depend on the processing

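The number of all features past an adjusted p of 0.05 was 0 in the fit reported, 346 without a filter on low counts, and 0 to 492 when single libraries were left out, the highest being without SKI3 RNAi replicate 1. It was 2 when SKI3 RNAi replicate 3 was left out. The number of LINE fragments past it was 0 in every alternative run. LINE fragments at an unadjusted p under 0.05 numbered 3 of 63 in the fit reported. With at least 1 CPM in 3 libraries they were 6 of 157 (3.82%, against 5.73% of the features tested there). Without a filter they were 12 of 484 (2.48%, against 4.64%). With single libraries left out they were 2 to 7 (2.70% to 9.59%, against 4.84% to 8.94%). For the 18 named fragments, 222 of 234 alternative fold changes kept their sign and 12 did not. Those were at 0.085 on table totals for retrotransposon17 Chr3-23362 and -0.024 without a filter for retrotransposon6 Chr3-4251, and the others arose with single libraries left out. There the log2 fold change ran from -0.30 to 0.10 for retrotransposon17 Chr3-23362, from -0.20 to 0.46 for retrotransposon32 Chr7-765, from -0.10 to 0.22 for retrotransposon50 Chr4-32410, from -0.31 to 0.39 for retrotransposon6 Chr3-4251 and from -0.10 to 0.61 for retrotransposon68 Chr2-21683, and the cause was not tested. It ran from -0.79 to -0.48 for retrotransposon32 Chr1-21600 and from -0.91 to -0.55 for retrotransposon32 Chr4-18828. Over all alternatives the adjusted p of these last 2 was between 0.453 and 1.00 and between 0.412 and 1.00.

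The difference of the LINE sum (SKI3 RNAi minus GUS RNAi) was above 0 in the alternatives run. It ran from 14.9 CPM with DESeq2 size factors to 118 CPM without SKI3 RNAi replicate 3. Single libraries were left out on table totals only, so a stable sign is not shown with TMM factors. On that scale the sums were 710, 783 and 661 CPM in SKI3 RNAi, against 734, 705 and 653 CPM in GUS RNAi. SKI3 RNAi replicate 2 was the highest there and GUS RNAi replicate 1 the next. The share of LINE fragments with a count averaged 25.4% with at least 3 counts and 44.9% at the depth of the shallowest library, against 48.9%, by construction. At least 3 counts moved the differences to -3.25 percentage points against Copia and -1.73 against TRIMs. Both passed the threshold in the exact paired permutation test, for the spread between libraries only. Replicates 1, 2 and 3 of both groups deviated from the group means with correlations of 0.0710, 0.190 and 0.251. The fit reported used the replicate numbers as names only, since the labels give groups and no covariate. These correlations were all above 0, so they do not show that the replicates are unpaired. With the replicate block 0 LINE fragments passed the threshold, with a smallest adjusted p of 0.593 in edgeR. In that fit 3 of 63 (4.76%, against 7.98% of all tested features) were at an unadjusted p under 0.05.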

Other observations

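Pieces of a LINE element that carry consecutive serial numbers formed 35 pairs. Both pieces had counts in 11 of them, a single piece in 11, and neither in 13. The pair with the largest contrast was in retrotransposon0, where Chr2-24035 had 1 count over all libraries and Chr2-24036 had 203. In retrotransposon58, 7 pieces between serial numbers 16773 and 16780 of chromosome 7 had 1 count each, all in GUS RNAi replicate 2 and none in another library. Whether such counts are a single read counted in each piece was not tested. Both examples were chosen after their values were seen.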
